A study of Mus musculus with 8 samples.

Results

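H3K27ac and H3K4me1 were compared in the NanogWT cells, region by region. The peaks of the NanogWT H3K27ac list and of the NanogWT H3K4me1 list were joined into regions wherever they overlapped or touched, and each region was classed by the marks it held. The 35452 H3K27ac peaks and 72242 H3K4me1 peaks (107694 of the 425777 peaks in the 8 lists of the series) gave 78288 regions. Both marks were present in 28100 regions (35.9%, 95% interval 35.6 to 36.2), H3K27ac only in 7164 (9.15%, 8.95 to 9.35) and H3K4me1 only in 43024 (55.0%, 54.6 to 55.3). The class sizes depend on the cut-off and the length of the lists. At a score of at least 100 there were 12514, 9131 and 17486 regions in the same order, with the best 20000 peaks of either list 9031, 10964 and 10954, and with summit windows in place of whole peaks 17333, 18119 and 54909. These intervals, like all intervals given here, are Wilson intervals that cover counting error only.

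The cells were mouse embryonic fibroblasts at day 5 of reprogramming towards pluripotency. They came from E13.5 OG2 embryos of either sex, which carry an Oct4-GFP reporter, and were infected with retroviruses that express Oct4 and FLAG-tagged Nanog. NanogWT stands for Oct4 with wild-type Nanog. NanogBiD, used below for comparison, stands for Oct4 with Nanog fused to the N-terminal 70 residues of SS18 (NanogN70), a subunit of the BAF chromatin remodelling complex. Each arm was profiled by CUT&Tag for H3K27ac, H3K4me1, BRG1 (the ATPase of the BAF complex) and FLAG (the tagged Nanog). Each of these groups is 1 library made from merged replicates, so no p-value can be given and no difference below has a replicate check. Library depth is unknown because the lists hold peaks and not all reads. The cells are a mixed culture part of the way through reprogramming, so a mark on part of the cells and a weaker mark on all of them cannot be told apart.

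Acetylation of lysine 27 of histone H3 is deposited by the coactivators p300 and CBP and is found at promoters and enhancers in use. Monomethylation of lysine 4, deposited by MLL3 and MLL4, marks enhancers more broadly, and enhancers that carry it without acetylation are usually called primed. Next to an active start site H3K4me1 commonly gives way to H3K4me3 and lies to the sides of it. The classes below are named by the marks alone, because the lists hold no measure of transcription.

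The tallest regions of each class outside promoters, ranked by the lower of the 2 heights where both marks were present, are printed as examples of sequence. The height of a peak is the number of CUT&Tag tags piled up at its summit, without scaling, so heights are compared only within a list, and the lower of the 2 heights serves to choose regions to show and for nothing else. A promoter is the stretch within 2 kb of any annotated start site. Of the 9 regions chosen (3 per class), 8 are printed, 100 bp either side of the H3K27ac summit, or of the H3K4me1 summit for H3K4me1 only. The window of the other, at Ccdc97, holds an exon. Build mm10, plus strand; capitals mark the AP-1 word TGACTCA, the TEAD word GGAATG and the RUNX word TGTGGTT, on either strand.
both marks, Sh3pxd2a intron, chr19:47330765-47330965: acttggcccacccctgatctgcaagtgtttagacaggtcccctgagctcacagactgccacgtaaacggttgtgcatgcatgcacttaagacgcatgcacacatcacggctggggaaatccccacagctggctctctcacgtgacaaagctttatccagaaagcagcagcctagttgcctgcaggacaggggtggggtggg
both marks, Col27a1 intron, chr4:63316377-63316577: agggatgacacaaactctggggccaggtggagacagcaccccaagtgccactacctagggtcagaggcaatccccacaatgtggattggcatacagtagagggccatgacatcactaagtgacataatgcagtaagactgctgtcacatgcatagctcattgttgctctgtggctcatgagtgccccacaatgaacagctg
H3K27ac only, Tmprss6 intron, chr15:78450406-78450606: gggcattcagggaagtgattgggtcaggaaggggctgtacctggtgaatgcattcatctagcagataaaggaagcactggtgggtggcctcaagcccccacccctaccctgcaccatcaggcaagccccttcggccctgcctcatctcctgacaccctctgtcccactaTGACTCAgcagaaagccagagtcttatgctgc
H3K27ac only, Anks1 intron, chr17:27977349-27977549: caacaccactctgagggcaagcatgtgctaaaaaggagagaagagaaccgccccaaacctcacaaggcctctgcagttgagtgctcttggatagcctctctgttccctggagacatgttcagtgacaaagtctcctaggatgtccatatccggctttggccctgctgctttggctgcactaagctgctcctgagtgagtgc
H3K27ac only, Vac14 intron, chr8:110705222-110705422: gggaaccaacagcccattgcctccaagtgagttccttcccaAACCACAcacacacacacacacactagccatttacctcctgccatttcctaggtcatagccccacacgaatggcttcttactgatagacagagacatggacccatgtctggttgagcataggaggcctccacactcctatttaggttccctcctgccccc
H3K4me1 only, Fam155a intron, chr8:9233431-9233631: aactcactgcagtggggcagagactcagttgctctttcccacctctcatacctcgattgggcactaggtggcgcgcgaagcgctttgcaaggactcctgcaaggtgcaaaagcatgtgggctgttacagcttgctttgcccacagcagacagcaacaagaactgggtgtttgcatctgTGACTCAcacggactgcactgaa
H3K4me1 only, D17Wsu92e intron, chr17:27799986-27800186: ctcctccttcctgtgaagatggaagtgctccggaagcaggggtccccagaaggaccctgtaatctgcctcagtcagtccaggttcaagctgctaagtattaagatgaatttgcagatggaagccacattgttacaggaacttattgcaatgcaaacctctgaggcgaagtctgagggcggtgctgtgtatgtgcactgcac
H3K4me1 only, Dtx4 intron, chr19:12475463-12475663: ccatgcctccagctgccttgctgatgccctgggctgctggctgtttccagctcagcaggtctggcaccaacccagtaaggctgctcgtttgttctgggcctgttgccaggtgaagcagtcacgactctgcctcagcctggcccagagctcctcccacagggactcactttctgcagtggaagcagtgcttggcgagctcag
The region in an intron of Sh3pxd2a, which encodes a scaffold protein of podosomes, spanned 2267 bp with 64 H3K27ac tags and 41 H3K4me1 tags. The region in Col27a1, a fibrillar collagen gene, spanned 2674 bp with 39 and 38 tags. The H3K27ac-only regions printed were broad, at 6472 bp in Tmprss6, 5812 bp in Anks1 and 5323 bp in Vac14, with 43 to 44 tags. All 3 of these held an H3K4me1 peak in the NanogBiD list, against 25.6% of all H3K27ac-only regions away from promoters. The H3K4me1-only regions printed spanned 1024 to 2168 bp with 33 to 38 tags. All 8 printed regions overlapped a FLAG peak, and all but the region in Fam155a overlapped a BRG1 peak. These tallest regions are not typical, since away from promoters 34.7% of H3K4me1-only regions overlapped FLAG and 9.43% BRG1. The words searched occur in 3 of the 8 windows, AP-1 at Tmprss6 and Fam155a and RUNX at Vac14.

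Acetylated peaks usually carried H3K4me1, whereas most H3K4me1 peaks lacked acetylation. An H3K4me1 peak overlapped 79.8% (79.4 to 80.2) of H3K27ac peaks. The reverse share was 40.4% (40.1 to 40.8). The share of H3K27ac peaks with H3K4me1 was close at promoters (82.7%) and elsewhere (77.5%). The share of H3K4me1 peaks with H3K27ac differed more by location, at 61.3% (60.6 to 61.9) at promoters and 31.3% (30.9 to 31.7) elsewhere. Both shares fell with a stricter overlap, to 62.0% and 30.4% when each peak had to cover at least 50% of the other. They also depend on how many peaks each list holds. When both lists were cut to their best 20000 peaks by score, each share was 45.2%.

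Regions with both marks lay at promoters more often than regions with H3K4me1 only. The promoter share was 45.8% (45.2 to 46.4) with both marks, 37.3% (36.2 to 38.5) with H3K27ac only and 19.8% (19.5 to 20.2) with H3K4me1 only. Over all regions it was 30.8%, and promoters so defined cover 10.9% of chromosomes 1 to 19 and X. The summit lay within 500 bp of a start site in 35.2%, 26.2% and 8.32% of the 3 classes in the same order. Introns held 28.5%, 36.2% and 41.7%, and intergenic sequence held 23.6%, 23.9% and 35.4%. The median distance from the summit to the nearest start site of a protein-coding gene was 8.40 kb with both marks, 12.8 kb with H3K27ac only and 24.3 kb with H3K4me1 only. The order of the acetylated classes depends on the setting. At a score of at least 100 the promoter share was 55.3% with both marks and 56.5% with H3K27ac only, against 27.3% with H3K4me1 only. With summit windows in place of whole peaks it was 40.7%, 42.6% and 24.7%. At a height of at least 15 tags the order was kept, at 57.8%, 56.5% and 26.8%. The low place of H3K4me1-only regions was seen under every setting tried.

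**Figure D1:**
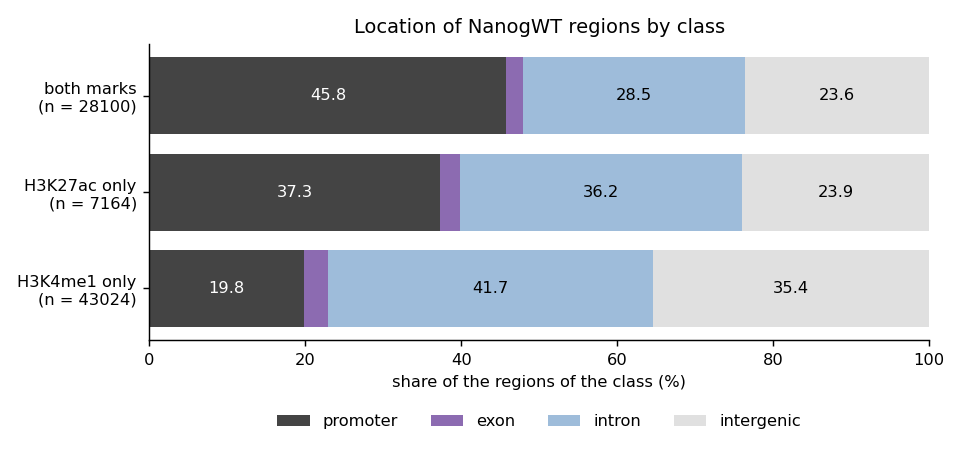
Stacked bars show the share of the regions of each NanogWT class (%) that lie at promoters (within 2 kb of a start site), in exons, in introns or in intergenic sequence. The promoter part shrinks from 45.8% with both marks to 19.8% with H3K4me1 only, while introns and intergenic sequence together grow.

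Peaks that shared a region with the other mark were wider and taller in both lists over all peaks. An overlap of 1 bp, or touching, was enough to share a region, and a wider peak meets this more easily. The part of this rule in the differences was not tested. H3K4me1 peaks had a median height of 17.5 tags (quartiles 15 and 21) with H3K27ac and 14 tags (12 and 16) without it. Their median width was 1228 bp with H3K27ac and 817 bp without it. This held at promoters (18 against 15 tags) and elsewhere (17 against 13 tags). H3K27ac peaks had a median height of 17 tags (12 and 24) with H3K4me1 and 14 tags (11 and 20) without it, and a median width of 1284 bp against 1092.5 bp. Away from promoters the H3K27ac heights were 14 and 13 tags. This H3K27ac difference depends on which peaks are kept. At a score of at least 100 the medians were equal in height, and the width difference turned to -208 bp. With the best 20000 peaks of either list the differences were -1 tag and -228 bp. At a height of at least 15 tags the peaks with H3K4me1 were taller by 3 tags and wider by 105 bp.

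The height of an H3K4me1 peak set apart the acetylated ones far more than the reverse. Away from promoters, 6.58% (4.95 to 8.69) of H3K4me1 peaks of at most 9 tags overlapped H3K27ac. The share was 15.8% at 10 to 14 tags, 40.4% at 15 to 19, 66.7% at 20 to 24, 82.1% at 25 to 29 and 92.9% (88.7 to 95.6) at 30 to 39. At promoters it rose from 15.4% to 96.2% over the same bins. The share of H3K27ac peaks with H3K4me1 rose less steeply away from promoters, from 69.0% at up to 9 tags to 95.6% (90.6 to 97.9) at 40 tags or more. At promoters it lay between 74.7% and 86.5%. Away from promoters a low H3K4me1 peak was thus seldom acetylated, while at promoters 38.1% of those of 10 to 14 tags were. A low H3K27ac peak mostly had H3K4me1 at both locations. Taller peaks were also wider, and wider peaks overlap others more easily. Acetylated H3K4me1 peaks away from promoters had a median width of 744 bp at up to 9 tags and 1717.5 bp at 30 to 39. The lists also differ in length, with 72242 H3K4me1 and 35452 H3K27ac peaks. The part of width and of list length in these shares was not tested.

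**Figure D2:**
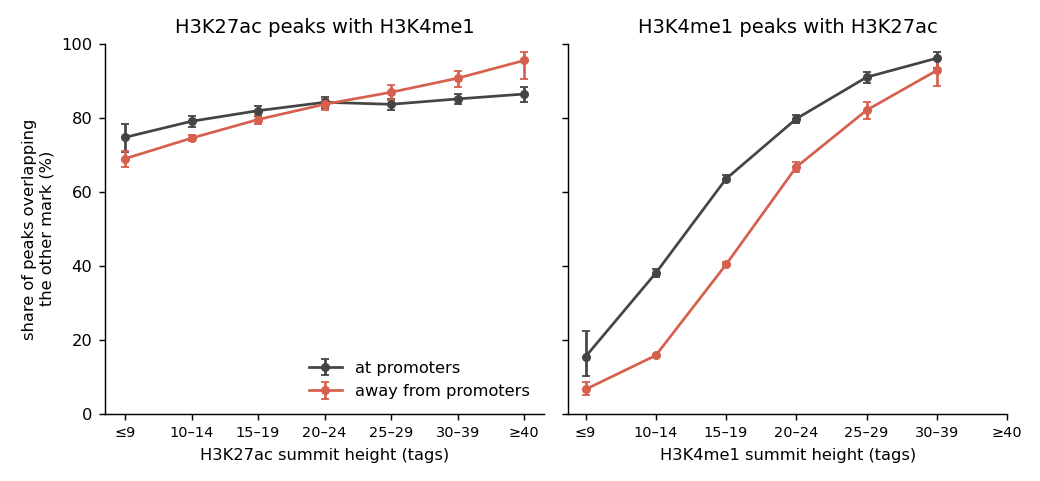
Points show the share of peaks (%) that overlap a peak of the other mark, by summit height in tags, for H3K27ac peaks and for H3K4me1 peaks, at promoters and elsewhere; bars are Wilson 95% intervals. Bins under 20 peaks are left out, among them H3K4me1 at 40 tags or more. The H3K4me1 curves climb from 6.58% and 15.4% to over 90%, and the H3K27ac curves start near 70%.

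Within the 28100 regions with both marks the peaks mostly coincided. The marks overlapped over 63.2% of the summed length, with 20.8% under H3K27ac only and 16% under H3K4me1 only. At promoters H3K27ac alone took 26.4% and H3K4me1 alone 13.4%, and elsewhere the order was the other way round, at 14.7% and 18.8%. The nearest summits of the marks were a median of 139 bp apart (quartiles 52 and 304), with 160 bp at promoters and 130 bp elsewhere. Several H3K4me1 peaks, as would flank a summit, were present in 6.05% of promoter regions and in 2.20% of the others. The heights of the marks rose together in part, with a Spearman correlation across regions of 0.29 at promoters and 0.43 elsewhere. Regions are not independent replicates.

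At promoters the H3K4me1 peaks covered the start site or just downstream of it most often. The 5′ end of the gene was under an H3K27ac peak in 85.2% and under an H3K4me1 peak in 75.9% of the 11223 protein-coding promoters with both marks. At 500 bp downstream the shares were 79.7% and 52.2%, and at 1000 bp upstream 22.6% and 15.9%. The highest H3K4me1 share beyond the 5′ end was 75.8%, at 100 bp downstream. BRG1 and FLAG were also highest within 100 bp of the 5′ end there, with 75.7% and 73.9% of the 5′ ends under a peak. Further downstream the outlines differed. At 500 bp BRG1 covered 62.1% and FLAG 56.4%, above H3K4me1. At 1000 bp BRG1 covered 26.2% and FLAG 23.9%, below the 32.0% of H3K4me1. At the 2662 promoters with H3K4me1 only, H3K4me1 covered 58.8% of the 5′ ends and 60.7% at 200 bp downstream, while BRG1 covered 9.32% and FLAG 8.98%. The lists therefore show no dip of this mark at the start site in either class. The antibody is labelled H3K4me without the degree of methylation, while the title gives H3K4me1, and whether it also bound other degrees of methylation was not tested. A peak list would hide a dip narrower than a peak.

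The promoters of named gene groups fell into different classes, and the shares over all genes give the scale. As above, genes were classed by the peaks within 2 kb of any of their start sites, and not by joined regions. Over 21755 protein-coding genes, 51.6% of promoters held both marks, 5.96% H3K27ac only, 12.2% H3K4me1 only and 30.2% neither mark. The lists were chosen with earlier results of these data known, so their counts are descriptions. Among 26 fibroblast and mesenchymal genes, 20 promoters held both marks, 3 H3K27ac only, 2 H3K4me1 only and 1 neither. Genes named with their tags here, beyond the pluripotency list, were chosen after their values were seen. Vim (vimentin) had 49 H3K27ac and 20 H3K4me1 tags, and Acta2 (smooth muscle actin) 49 and 28. Thy1, a surface marker of fibroblasts, had 44 and 25 tags, but not at the 5′ end of the gene (chr9:44043384). The H3K27ac summit stood at 44048936, beyond the end of the gene (44048579) and 1.014 kb from its nearest annotated start site. The exceptions were Postn (16 tags), Zeb2 (29) and Dcn (8) with H3K27ac only, Prrx1 (16) and Lum (20) with H3K4me1 only, and Loxl2 with neither. The share with both marks, 76.9%, was below that of housekeeping genes, 83.3%. Among 20 epithelial genes the pattern was the other way round. H3K4me1 alone marked 15 promoters, both marks 2, H3K27ac alone 2, and 1 had neither. Cdh1, the gene of E-cadherin, had 16 H3K4me1 tags and no H3K27ac peak at its promoter. The epithelial adhesion gene Epcam had 13, the tight junction genes Cldn4, Cldn7 and Ocln had 15, 20 and 21, and the keratin genes Krt8 and Krt18 had 21 and 12. Grhl2, a transcription factor of epithelial cells, held both marks, with 14 H3K27ac and 24 H3K4me1 tags.

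Of 28 pluripotency genes, 10 promoters held both marks, 11 H3K4me1 only and 7 neither, and none held H3K27ac only. Those with both marks included Klf4 (33 H3K27ac and 18 H3K4me1 tags), Klf2 (29 and 25), Klf5 (24 and 24), Tbx3 (30 and 19), Tet1 (21 and 23), Gdf3 (26 and 15) and Dnmt3l (22 and 22). Lefty1 (13 and 24), Dnmt3b (18 and 14) and Tfcp2l1 (14 and 13) had weaker H3K27ac peaks. H3K4me1 alone marked Sox2 (22 tags), Esrrb (20), Nr5a2 (24), Utf1 (23), Sall4 (18), Fgf4 (16), Dppa3 (16), Nodal (15), Prdm14 (14), Tdgf1 (12) and Pou5f1 (46). Nanog, Zfp42, Dppa2, Dppa4, Dppa5a, Lefty2 and Lin28a had neither mark.

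Of 20 genes of AP-1, TEAD and YAP signalling, 16 promoters held both marks and 3 H3K27ac only. Jun had 47 H3K27ac and 18 H3K4me1 tags, Junb 50 and 27, Fosl2 51 and 20 and Tead1 36 and 20. The promoters of Fos (41 tags), Bach1 (37) and Tead3 (33) had H3K27ac without H3K4me1, and Batf had H3K4me1 only (16 tags). Of 24 housekeeping genes, 20 held both marks, 3 H3K27ac only and 1 H3K4me1 only. Genes of cell types that the culture should lack were split. Of 20 neuronal genes, 9 held both marks and 11 H3K4me1 only, among them the transcription factors Neurod1 (20 tags) and Neurog2 (19). Of 20 liver genes 17 had neither mark, and of 20 blood cell genes 18 had neither. The exceptions among the blood cell genes were Csf1r, the receptor of a macrophage growth factor (20 H3K27ac and 23 H3K4me1 tags), and Klf1, an erythroid transcription factor (14 and 14), which held both marks.

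**Figure D3:**
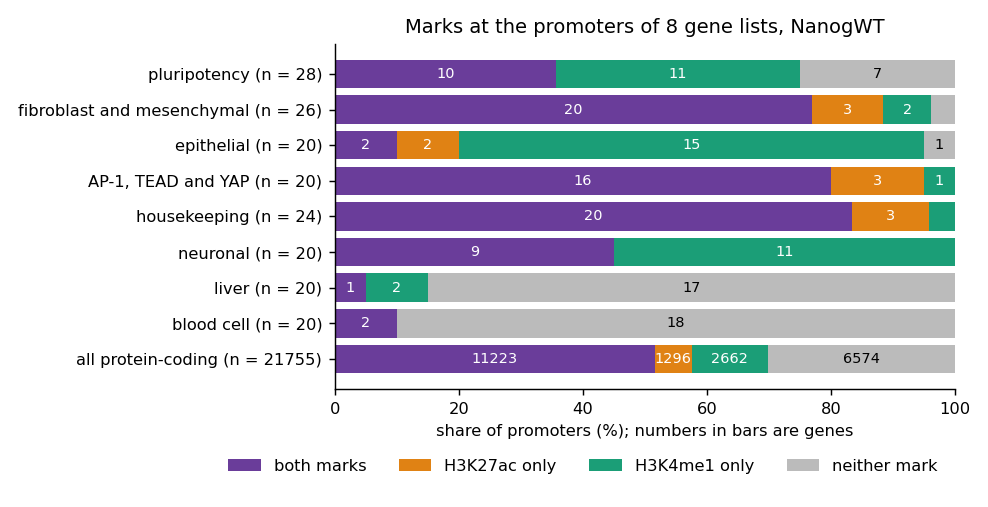
Stacked bars show the share of promoters (%) with both marks, H3K27ac only, H3K4me1 only or neither mark, for 8 gene lists and for all 21755 protein-coding genes; numbers in the bars count genes. H3K4me1 only takes 15 of 20 epithelial promoters, both marks take most promoters of the fibroblast, AP-1, TEAD and YAP and housekeeping lists, and neither mark takes most liver and blood cell promoters.

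The classes differed in the CpG content of their promoters. The ratio of observed to expected CpG dinucleotides within 500 bp of the 5′ end had a median of 0.720 with both marks, 0.751 with H3K27ac only, 0.482 with H3K4me1 only and 0.166 with neither mark. It was above 0.6, the usual limit for a CpG island, in 70.2%, 72.0%, 35.9% and 4.69% of promoters. The list promoters did not all follow this order. The median ratio was 0.474 for the 20 fibroblast and mesenchymal promoters with both marks, near that of the H3K4me1-only class. It was 0.223 for the 17 liver promoters and 0.190 for the 18 blood cell promoters with neither mark, and 0.585 for the 15 epithelial and 0.608 for the 11 neuronal promoters with H3K4me1 only. A promoter of each kind is printed, 250 bases up to the start site, from RefSeq on GRCm38.p6 in the direction of the gene, with CG in capitals. These were chosen after their classes were seen, from list genes with no exon in the window. Twist1 and Zeb2 encode mesenchymal transcription factors, Epcam an epithelial adhesion protein and Alb the liver protein albumin.
Twist1, both marks, chr12:33957421-33957670, plus strand: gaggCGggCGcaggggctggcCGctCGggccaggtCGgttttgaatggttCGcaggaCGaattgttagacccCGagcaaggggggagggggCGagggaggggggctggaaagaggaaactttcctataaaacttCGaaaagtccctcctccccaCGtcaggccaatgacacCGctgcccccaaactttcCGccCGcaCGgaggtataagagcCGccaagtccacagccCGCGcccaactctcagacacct
Zeb2, H3K27ac only, chr2:45117443-45117692, minus strand: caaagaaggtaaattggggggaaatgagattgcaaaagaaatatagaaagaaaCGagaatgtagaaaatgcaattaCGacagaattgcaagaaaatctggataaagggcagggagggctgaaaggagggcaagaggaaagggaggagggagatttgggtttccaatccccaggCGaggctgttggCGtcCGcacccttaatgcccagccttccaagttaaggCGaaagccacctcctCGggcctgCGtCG
Epcam, H3K4me1 only, chr17:87635729-87635978, plus strand: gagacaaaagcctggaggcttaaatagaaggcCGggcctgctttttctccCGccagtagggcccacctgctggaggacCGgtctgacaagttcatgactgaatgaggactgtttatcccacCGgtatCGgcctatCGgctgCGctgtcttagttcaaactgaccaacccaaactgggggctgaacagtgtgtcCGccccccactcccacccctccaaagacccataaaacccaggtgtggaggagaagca
Alb, neither mark, chr5:90460620-90460869, plus strand: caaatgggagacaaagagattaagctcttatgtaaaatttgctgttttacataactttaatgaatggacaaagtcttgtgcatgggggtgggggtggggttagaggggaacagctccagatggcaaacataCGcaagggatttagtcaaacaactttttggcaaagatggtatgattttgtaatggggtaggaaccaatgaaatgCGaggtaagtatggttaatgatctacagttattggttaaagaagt
The Twist1 window holds 18 CG, Zeb2 9, Epcam 8 and Alb 2. These 4 do not stand for their classes, which overlap widely. With both marks the windows of list genes held from 0 CG at Col3a1 to 32 at Klf4, and with H3K4me1 only from 2 at Nr5a2 to 27 at Sox2.

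The tallest protein-coding promoters with H3K27ac only were those of Map7d1 (65 tags), Ppp1r10 (60), Eif4enif1 (58), Atrnl1 (57), Fubp1 (57), Ube2b (56), Psma3 (56), Brd2 (56), Pdap1 (56) and Kmt2e (55). Ppp1r10 encodes a regulatory subunit of protein phosphatase 1, Psma3 a proteasome subunit, Ube2b a ubiquitin-conjugating enzyme and Brd2 a reader of acetylated histones. All 10 had H3K27ac in the NanogBiD list too, and 6 of them had H3K4me1 there, against 82.8% and 36.5% of all H3K27ac-only regions at promoters. At those 6 genes the lack of H3K4me1 was not shared by the other arm. The tallest promoters with both marks by the lower of the 2 heights, after a region at the noncoding gene Gm26917 on chromosome 17 (103 and 77 tags), were those of Hjurp (56 and 53), a histone chaperone of centromeres, and Dynlt1b (57 and 46), a dynein light chain. The tallest H3K4me1-only promoters were Pou5f1 (46), Lsp1 (35) and Trim9 (33).

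Pou5f1 and Nanog, the genes of the factors delivered, need separate reading. The Pou5f1 region (chr17:35500115-35504826) lay upstream of the gene, with its summit 2.21 kb from the nearest start site. It spanned 4712 bp and held a FLAG peak but no BRG1 peak, and neither mark was called there in NanogBiD. The NanogBiD list instead held a downstream H3K4me1 peak of 78 tags (chr17:35510707-35515248). Whether the Oct4-GFP reporter added tags to these regions was not tested. At Nanog 5 regions with both marks away from promoters were counted (2 with assignment to any annotated gene), and 2 of the 5 lay over its exons. In the first of these the summits stood at 122711672 (H3K27ac), 122711670 (H3K4me1), 122711671 (BRG1) and 122711669 (FLAG) on chromosome 6. In the second they stood at 122713280, 122713278, 122713278 and 122713282. All 8 of these summits were in Nanog exons, and 68.8% of the H3K27ac peak and 78.7% of the H3K4me1 peak of the second region were exon. The retroviral Nanog carries the coding exons, and its part in these peaks was not tested. The region upstream of Nanog (chr6:122701574-122703478, 20 and 16 tags) holds no Nanog exon.

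Away from promoters, regions were assigned to the nearest protein-coding start site within 100 kb. In this way 12004 regions with both marks were assigned to 6231 genes, 3442 H3K27ac-only regions to 2500 genes and 25751 H3K4me1-only regions to 9233 genes. A gene had a distal region with both marks in 37.6% (36.7 to 38.5) of cases where its promoter held both marks, 31.5% (29 to 34.1) with H3K27ac only, 31.4% (29.7 to 33.2) with H3K4me1 only and 11.7% (10.9 to 12.5) with neither. The first share lies above the 2 middle ones, whose intervals overlap each other. The genes with the most distal regions with both marks were Ank3 (15), Foxp1 (14), Pde4d (14), Svil (14), Enox1 (13), Lpp (12), Smyd3 (12), Tead1 (12), Cacna1c (11) and Frmd4a (11). Ank3 encodes a scaffold protein of the membrane skeleton, Svil an actin-binding protein, Lpp a focal adhesion protein and Tead1 a transcription factor that binds YAP. These counts depend on the assignment. With the nearest start site of any annotated gene they were 12 at Ank3, Foxp1 and Pde4d, 11 at Smyd3, 9 at Tead1, 8 at Svil, 7 at Cacna1c, 6 at Frmd4a, 4 at Lpp and 3 at Enox1. Ties at the end of this and the next rankings were cut by symbol, and Rbfox1, for one, also had 11 such regions (10 with any annotated gene). The counts were not scaled to the length of sequence nearest to each gene, and most of these genes are long.

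Among genes with no distal region of both marks, H3K4me1-only regions were most numerous at Macrod2 (14), Adamtsl3 (13), Suclg2 (13), Col25a1 (12), D7Ertd443e (12), Fgf12 (12), Camta1 (11), Galnt17 (11) and Rxrg (11). H3K27ac-only regions were most numerous at Glis3 (7), Pde1a (7), Rbfox1 (7), Dst (6) and Enox1 (6), and each of these 5 genes also had 6 to 13 regions with both marks. In the lists, a distal region with both marks was present at 16 of 26 fibroblast and mesenchymal genes, 13 of 20 genes of AP-1, TEAD and YAP signalling, 6 of 20 epithelial genes and 6 of 28 pluripotency genes (Nanog among them), against 28.6% of all protein-coding genes. With the nearest start site of any annotated gene these were 13, 9, 4 and 4 genes, against 20.6%. The other lists had 6 of 20 neuronal, 6 of 20 liver, 3 of 20 blood cell and 6 of 24 housekeeping genes, and 4, 3, 2 and 4 with any annotated gene. The collagen gene Col5a1 and the matrix gene Tgfbi had 5 each, Col1a1 4, Col1a2 3 and Prrx1, a mesenchymal transcription factor, 3. Among epithelial genes Grhl2 had 3, beside 14 H3K4me1-only regions, and Epcam, Cldn4 and Krt18 had 2 each although their promoters carried H3K4me1 only. Tead1 led its list with 12, before Bach2 (7), Ccn1 (4), a YAP target, and Fos (4). Among pluripotency genes Klf5 had 3 and Klf4 2, while Tet1 and Lefty2 had 1 each and Esrrb had 1 beside 7 H3K4me1-only regions. In the lists of other cell types, the neuronal genes were led by Map2 (3) and Rbfox3 (3), before Elavl4 and Nefl (1 each). The liver genes were led by Apob (4) and Fgg (3), before Hnf4a (1), and Csf1r, Ptprc and Spi1 were the blood cell genes with 1. Housekeeping genes were led by Ywhaz (6), and Actb, Eef1a1 and Rab7 had 2 each. With assignment to any annotated gene the counts at Ywhaz, Eef1a1, Grhl2, Fgg, Klf4, Col1a2, Tet1, Nefl, Hnf4a and Ptprc were 0, those at Klf5, Col1a1, Prrx1, Epcam and Ccn1 were 1, Bach2 and Rbfox3 had 2 and Col5a1, Tgfbi and Fos had 3, while Actb, Rab7, Cldn4, Krt18, Map2 and Apob kept their counts.

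Regions with H3K27ac overlapped peaks of the tagged Nanog and of BRG1 more often than regions with H3K4me1 only. A FLAG peak overlapped 84.1% (83.7 to 84.5) of regions with both marks, 68.5% (67.4 to 69.5) with H3K27ac only and 32.9% (32.4 to 33.3) with H3K4me1 only. For BRG1 the shares were 72.0%, 46.5% and 10.2%. Away from promoters the FLAG shares were 82.8%, 66.3% and 34.7% and the BRG1 shares 62.9%, 36.6% and 9.43%. Neither FLAG nor BRG1 was called in 10.8% of regions with both marks and in 63.7% with H3K4me1 only. Over all regions the shares were 54.5% for FLAG, 35.7% for BRG1 and 41.3% for neither. Over all regions away from promoters they were 50.9%, 26.7% and 45.7%. Wider regions meet other peaks more easily, and the median width of the classes was 1601, 1092.5 and 817 bp. With windows of 100 bp either side of every summit the FLAG shares were 69.0%, 39.8% and 22.1% and the BRG1 shares 60.7%, 33.4% and 11.1%, in the same order. A region with both marks then joins at least 2 windows, so it is still wider than a single window.

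**Figure D4:**
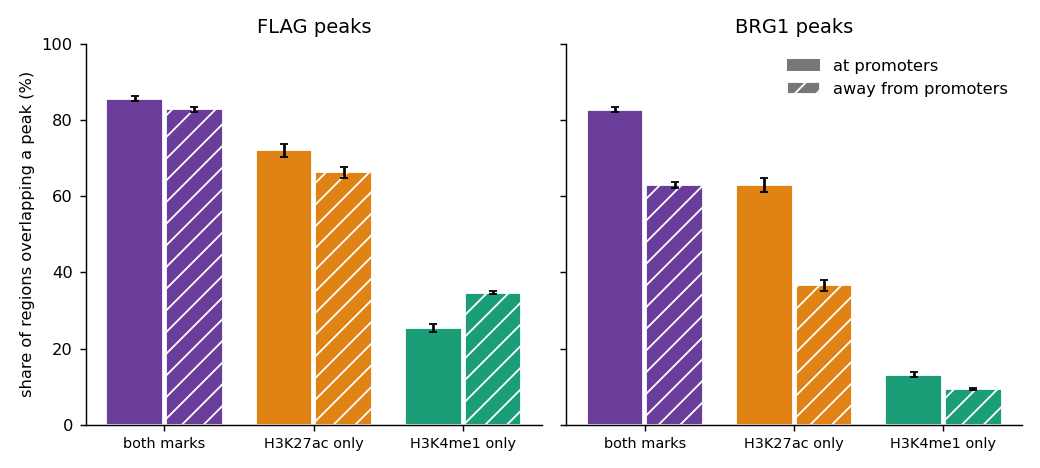
Bars show the share of regions (%) of each NanogWT class that overlap a FLAG peak or a BRG1 peak of the same arm, at promoters (plain) and elsewhere (hatched); error bars are Wilson 95% intervals. For both targets the share falls from regions with both marks through H3K27ac only to H3K4me1 only.

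The difference between acetylated and unacetylated H3K4me1 peaks also held at equal H3K4me1 height. Of the H3K4me1 peaks of 10 to 14 tags away from promoters, a FLAG peak lay within 100 bp of the summit in 71.7% (70.3 to 73.1) of the 4009 with H3K27ac and in 27.6% (27 to 28.2) of the 21401 without it. At 20 to 24 tags the shares were 84.5% and 45.8%. For BRG1 they were 40.6% against 5.19% at 10 to 14 tags and 75.1% against 23.9% at 20 to 24 tags. Turned round, H3K27ac peaks of 10 to 14 tags had FLAG in 74.2% with H3K4me1 and 58.3% without it, and BRG1 in 45.6% and 27%. At 10 to 14 tags the gap was thus wider between H3K4me1 peaks with and without H3K27ac than between H3K27ac peaks with and without H3K4me1. Peaks of equal height still differed in width, with medians of 913 and 713 bp for H3K4me1 at 10 to 14 tags.

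The class of a NanogWT region was carried over unequally to the NanogBiD lists. Both marks were present again in 72.5% (71.9 to 73.0) of regions with both marks, and neither mark in 8.40%. Of the H3K27ac-only regions, 40.2% had H3K27ac only, 25.1% had both marks and 30.2% had neither. Of the H3K4me1-only regions, 30.4% (29.9 to 30.8) had H3K4me1 only, 14% had both marks and 51% (50.5 to 51.5) had neither. Promoter regions were carried over more often than others in all 3 classes. Both marks were kept at 84.5% of promoter regions and 62.3% of others, H3K27ac only at 48.8% and 35.1%, and H3K4me1 only at 39.7% and 28.0%. With the classes pooled, NanogBiD had both marks at 55.4% of promoter regions and 27.4% of others. It had H3K27ac only at 11.4% and 9.68%, and H3K4me1 only at 16.6% and 21.5%. Low peaks were lost more often. Of H3K4me1-only peaks away from promoters, the NanogBiD H3K4me1 list covered the summit window in 31.8% at 10 to 14 tags and in 65.3% at 20 to 24 tags. Wider regions also meet NanogBiD peaks more easily. The median width was 1601, 1092.5 and 817 bp in the 3 classes, and 1457 bp at promoters against 925 bp elsewhere. The part of width was not tested. The arm and the library cannot be told apart here, and the NanogBiD list of H3K4me1 held fewer peaks (57156) than the NanogWT list, while its H3K27ac list held more (42598).

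The GC and repeat content around the summits differed by class. Within 150 bp of the H3K27ac summit, promoter regions with both marks had a median GC content of 62.5% and those with H3K27ac only 59.5%. Within 150 bp of the H3K4me1 summit it was 59.5% with both marks and 53.5% with H3K4me1 only. The windows moved 5 kb towards higher coordinates, whatever the strand of the gene, had 44.4% to 45.8%. Away from promoters the medians were 49.2%, 46.5%, 49.5% and 48.5% in the same order, against 43.2% to 44.5% for the moved windows. Soft-masked repeats covered 12.2% of the windows with both marks, 16.6% with H3K27ac only and 14.6% with H3K4me1 only away from promoters, against 26.8% to 28.3% after the move.

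Motif words were searched on both strands within 150 bp of the summit, and none of them lies inside another. The AP-1 word TGACTCA was found away from promoters in 20.4% (19.7 to 21) of H3K27ac summits with both marks and 15.6% (14.6 to 16.7) with H3K27ac only, against 5.10% and 5.02% after the move. At H3K4me1 summits it was found in 20.5% with both marks and 14.2% (13.8 to 14.6) with H3K4me1 only, against 5.16% and 5.15%. Over all regions away from promoters the shares were 19.3% at H3K27ac summits and 16.1% at H3K4me1 summits. Away from promoters the word was thus more common than in the moved windows in every class, and most so where both marks met. At promoters the order at H3K4me1 summits was the other way round, with 8.05% (7.59 to 8.53) with both marks and 9.71% (9.10 to 10.4) with H3K4me1 only, and at H3K27ac summits it was 7.44% with both marks and 6.18% with H3K27ac only. The octamer ATGCAAAT, bound by Oct4, was found at 4.97%, 4.91% and 4.88% of the distal FLAG summits in regions with both marks, H3K27ac only and H3K4me1 only, against 1.98%, 2.63% and 2.26% after the move. The CTCF motif was found away from promoters at 2.25% of H3K4me1 summits with H3K4me1 only and 1.66% with both marks, against 0.165% and 0.217% after the move. At H3K27ac summits it was found at 0.803% with H3K27ac only and 1.22% with both marks, against 0.156% and 0.243%. The words TGTGGTT (RUNX), GGAATG (TEAD), ACAATGG or ACAAAGG (SOX) and CCAAT (NFY) differed by at most 3 percentage points between classes away from promoters. The word TGACGTCA (CREB) was rare there, at 0.591% of H3K4me1 summits with both marks and 0.2% of those with H3K4me1 only. At promoters the GC box GGGCGG was found in 53.1% with both marks and 43.5% with H3K27ac only at H3K27ac summits, and in 47.6% with both marks and 22.2% with H3K4me1 only at H3K4me1 summits. The ETS word CCGGAAG was found in 11.6%, 10.6%, 11.2% and 2.26% in the same order, and the NRF1 word GCATGCGC in 3.35%, 2.25%, 4.06% and 1.10%. A match describes the letters and not binding.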

How the data were processed

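Per the labels and the study's methods, the authors trimmed reads with Trim Galore 0.6.4, aligned them to mm10 with Bowtie2 2.4.5, filtered with SAMtools 1.16.1 (repetitive, low-quality and mitochondrial reads removed), merged replicates and called peaks with MACS 1.4.2. No control library is named. The labels and the methods differ on the kit and the cell number. The antibody is labelled H3K4me, and the title and methods give H3K4me1. The deposited peak files hold a score per peak (from its p-value, at least 50), and the deposited summit files hold the signal at the summit as a tag pileup in whole numbers, without scaling for depth, which is unknown.

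Peaks of both NanogWT lists were merged into regions (overlap of at least 1 bp, or touching) with Python 3 scripts using pandas and numpy, and the interval code was tested on simulated data. Promoters were 2 kb either side of every GENCODE M21 start site (same build), and the nearest protein-coding genes were taken within 100 kb. Locations outside promoters are those of the region's midpoint. Motifs and GC content were read from GRCm38.p6. By rule, named genes were, in each of 8 lists, the 4 with the most distal regions with both marks, every pluripotency gene, the leading genes of all by distal regions (10, 10 and 5), the 10 tallest H3K27ac-only promoters, and the 3 tallest regions per class and location, chromosome 18 left out. Other list genes named were chosen after their values were seen. A few genes that this rule names are not reported here. Alternatives were a higher score or height, equal list sizes, summit windows, merging across gaps, other promoters and other overlaps. Members and lists were chosen with earlier results of these data known.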

Additional observations from a re-analysis of the deposited data

How the results depend on the processing

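No paired analysis was possible because every target in either arm was deposited as 1 list from merged replicates, and no replicate could be left out. Values are given for regions with both marks, H3K27ac only and H3K4me1 only, in this order, and the cause of each shift was not tested beyond the alternative itself. With peaks of score at least 100 there were 12514 regions with both marks and 17486 with H3K4me1 only. The promoter shares were then 55.3%, 56.5% and 27.3%, the FLAG shares 81.7%, 73.6% and 30.3% and the BRG1 shares 67.0%, 52.7% and 6.26%. H3K27ac peaks had H3K4me1 in 57.8% and the reverse was 41.8%. The H3K27ac medians differed by 0 tags and by -208 bp, the width having turned its sign. Cut to the best 20000 peaks by score, there were 9031, 10964 and 10954 regions. The promoter shares were 57.0%, 58.6% and 31.1%, the FLAG shares 64.4%, 52.7% and 17.4% and the BRG1 shares 79.7%, 69.6% and 15%. The overlap shares were 45.18% and 45.23%. The H3K27ac medians turned, with -1 tag and -228 bp, and the H3K4me1 width difference was 256.5 bp. With a height of at least 15 tags there were 14907 regions with both marks and 24034 with H3K4me1 only, with promoter shares of 57.8%, 56.5% and 26.8%, FLAG shares of 71.2%, 59.4% and 21.6% and BRG1 shares of 57.1%, 36.7% and 3.72%. The overlap shares were 72.3% and 39.1% and the H3K27ac width difference 105 bp, with a height difference of 3 tags.

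With summit windows there were 17333 regions with both marks and 18119 with H3K27ac only, with promoter shares of 40.7%, 42.6% and 24.7%, FLAG shares of 69.0%, 39.8% and 22.1% and BRG1 shares of 60.7%, 33.4% and 11.1%. The overlap shares were 48.8% and 23.9% and the H3K27ac height difference 1 tag. Peaks in summit windows have no width to compare. Merging across gaps of up to 500 bp gave overlap shares of 81.9% and 42.2%, a BRG1 share of 47.6% with H3K27ac only and a promoter share of 19% with H3K4me1 only. An overlap of at least 50% of both peaks gave 62.0% and 30.4%. Promoters of 1 kb gave promoter shares of 42.4%, 33.5% and 15%, and start sites of protein-coding genes only 40.2%, 31.5% and 14.2%. With the nearest start site of any annotated gene, 4488, 1702 and 7256 genes had a distal region. The H3K27ac height difference was 1 tag away from promoters, and the H3K27ac width difference 52 bp at promoters. With motif windows of 50 bp the shares were lower for all classes, and away from promoters the AP-1 word stayed most common with both marks. The order of the FLAG and BRG1 shares held under all 6 alternatives tried for them. With chromosomes 1 to 19 and X only, all 18 values computed stayed within their limits. Precision is limited by unknown depth and 1 library per group.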

Other observations

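Chromosome X stood apart from the other chromosomes in the balance of the marks. Of its 956 NanogWT regions, 36.4% held H3K27ac only, against 7.76% to 10.1% on each of chromosomes 1 to 19, and 30.4% held H3K4me1 only, against 52.3% to 58.7%. There were 1.08 H3K27ac peaks per H3K4me1 peak on chromosome X and 0.447 to 0.519 on the others. In the NanogBiD lists, which the classes do not use, the ratio was 1.53 on chromosome X and 0.693 to 0.802 elsewhere. All 4 targets had fewer peaks per Mb on chromosome X than on chromosomes 1 to 19, H3K4me1 most of all. NanogWT had 3.61 H3K4me1 peaks per Mb on chromosome X and 29.1 on chromosomes 1 to 19, a ratio of 0.124. The ratio was 0.276 for H3K27ac, 0.297 for FLAG and 0.258 for BRG1. In NanogBiD it was 0.126 for H3K4me1 and 0.262 for H3K27ac. Of the 948 protein-coding promoters on chromosome X, 15% (12.8 to 17.4) held H3K27ac only, against 5.55% (5.24 to 5.87) of 20807 on the other chromosomes, and 23.0% held both marks, against 52.9%. The difference was seen at promoters, where H3K27ac-only regions made up 36.8% and 10.5%, and away from them, at 36.0% and 8.04%. The embryos were of either sex, and the part of sex was not tested.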
